A study of Mus musculus with 9 samples.

Results

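Ak4, Igfbp3, Higd1a, Ndrg1 and Lox are 5 genes that hypoxia-inducible factors are known to switch on, and they were described across tumour and normal kidney cortex of mice. They are 5 of the 14052 genes in the count table and of the 7020 that had enough reads to be tested. The genes were selected on their measured tumour and normal levels, as hypoxia targets that did not move together. Their differences between the groups are therefore given as a description, with no test.

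The tumour samples were 5 areas (L4, R2, R3, R4 and R5) of kidney tumours that arose with floxed Vhl, floxed Pbrm1 and the Ksp-Cre transgene on a mixed background of C57BL/6, BALB/c and 129. The normal samples were 4 areas (L1, L2, R1 and R2) of renal cortex taken from wild-type C57BL/6 mice. Both groups ate a normal diet and were about 1 year old. The Ksp promoter, which belongs to the cadherin gene Cdh16, is used to direct Cre to epithelium of the kidney tubules. Tumour areas also hold vessels, fibroblasts and immune cells, in which that promoter is not known to act. The sample descriptions carry a common number within each group, so each group may be 1 animal, and p-values then measure the spread between areas. Strain goes with group, and the effects of genotype, strain, Cre and animal cannot be told apart. In bulk tissue, fewer cells of a type and less RNA per cell cannot be told apart either.

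The von Hippel-Lindau protein, made from Vhl, marks the alpha subunits of hypoxia-inducible factor (HIF) for destruction when oxygen is present. Without it the alpha subunits build up, pair with a beta subunit and bind a short core sequence near their target genes, which is the best known event in clear cell kidney cancer. Pbrm1 encodes a subunit of a chromatin remodelling complex that is also often lost in that cancer. HIF targets span glucose use, mitochondrial function, secreted factors and matrix enzymes, and the 5 genes come from different branches of that response.

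Counted reads per area ran from 5143527 to 8250261. Levels are CPM, counts brought to a common library total, after TMM scaling, which corrects for differences in library composition, and fold changes are log2 values of tumour over normal with the standard error of the edgeR fit. Vhl was at 45.1 to 75.7 CPM in tumour and 97.7 to 108 CPM in normal areas (log2 fold change -0.79 ± 0.13, edgeR adjusted p = 0.000248). Pbrm1 was at 106 to 162 CPM against 141 to 164 CPM (edgeR adjusted p = 0.142). It was called lower without tumour area L4 (-0.25, edgeR adjusted p = 0.0336) and without L4 and R5 (-0.33, edgeR adjusted p = 0.00459). Counts per gene do not show whether a floxed exon was lost. Hif1a (-1.09 ± 0.09, adjusted p = 2.84e-06) and Epas1 (-0.76 ± 0.06, adjusted p = 2.50e-06), which encode HIF alpha subunits, fell at the RNA level. Tumour areas L4 and R5 held the most fat cell transcripts, with summed marker levels of 599.7 and 128 CPM against at most 17 CPM in any other area, and the most urothelial transcripts, with 1065 and 187 CPM against at most 51.9 CPM. All 12 fixed markers of proximal tubule, the main tissue of kidney cortex, had reads.

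Sequence just before the start of transcription is shown for 3 of the 5 genes, Ak4, Igfbp3 and Higd1a, and not for Ndrg1 or Lox. HIF recognises the cores ACGTG and GCGTG. The windows hold the 250 bases before a RefSeq start on GRCm38.p6, a later build than the mm9 named in the submitters' processing notes. The Ak4 window is chr4:101419039-101419288 on the plus strand, the Igfbp3 window chr11:7213924-7214173 on the minus strand and the Higd1a window chr9:121857797-121858046 on the minus strand. Each is written 5′ to 3′ in the direction of transcription, and capitals mark a core on either strand.
Ak4: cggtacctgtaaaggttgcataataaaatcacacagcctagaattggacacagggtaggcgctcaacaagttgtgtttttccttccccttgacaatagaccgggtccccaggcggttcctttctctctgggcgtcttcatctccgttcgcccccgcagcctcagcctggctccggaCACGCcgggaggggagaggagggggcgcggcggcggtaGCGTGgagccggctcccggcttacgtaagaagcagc
Igfbp3: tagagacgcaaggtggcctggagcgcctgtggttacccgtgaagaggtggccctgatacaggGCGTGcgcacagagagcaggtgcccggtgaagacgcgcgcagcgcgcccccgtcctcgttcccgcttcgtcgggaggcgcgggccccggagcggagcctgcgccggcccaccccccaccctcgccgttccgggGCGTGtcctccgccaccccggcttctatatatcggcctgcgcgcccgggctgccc
Higd1a: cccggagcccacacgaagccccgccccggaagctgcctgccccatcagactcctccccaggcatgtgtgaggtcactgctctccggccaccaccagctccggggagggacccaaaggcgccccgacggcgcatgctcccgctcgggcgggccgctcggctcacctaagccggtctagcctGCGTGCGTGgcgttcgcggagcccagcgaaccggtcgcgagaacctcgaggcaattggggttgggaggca
Each window held 2 cores, all of them GCGTG. In Ak4 they began 74 bases before the start, on the opposite strand, and 36 bases before it, on the gene's own strand. In Igfbp3 they began at 188 and 55 bases, and in Higd1a at 70 and 66 bases, where they overlap. Ak4 has 4 listed starts, and the window of the most downstream start held ACGTG on both strands, which is the overlapping palindrome CACGTG. Cores of this length are common: 38.6% of 32851 windows of the same length held ACGTG or GCGTG on some strand. Counting a gene when any of its windows held a core, the share was 41.5% of 27025 genes. In a wider hypoxia target list described further on, it was 51 of the 62 genes that had a window (82.3%). Of that list's 26 genes called higher in tumour, 21 had a window, and a core was found for 18 of these. Among the 4 called lower, a core was found for 3. The list was made of known HIF targets, and the shares were not matched for windows per gene or base composition, so they are not compared. A match describes the letters only.

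Ak4 encodes a mitochondrial matrix adenylate kinase, an enzyme that balances adenine nucleotides, and is strongly made in proximal tubule. Its level in the tumour areas was 527 CPM in L4, 589 CPM in R2, 841 CPM in R3, 881 CPM in R4 and 696 CPM in R5. In the normal areas it was 3305 CPM in L1, 3151 CPM in L2, 3167 CPM in R1 and 3193 CPM in R2. Every tumour area lay far below every normal area, and the normal areas were nearly equal while the tumour areas spread. The means were 707 ± 154 CPM (SD, n = 5) and 3204 ± 69.6 CPM (SD, n = 4), a log2 fold change of -2.18 ± 0.15, or 4.53-fold lower in tumour. As a share of all counted reads, Ak4 took between 0.28% and 0.297% in normal areas and between 0.0614% and 0.0913% in tumour. The reference also holds Ak3l2-ps, a pseudogene that matches Ak4 over 672 bases at 99.6% identity and has no row in the count table, so reads shared with it may be missing from the Ak4 counts.

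Higd1a encodes a small protein of the inner mitochondrial membrane that acts on respiratory chain complexes and is a well-known HIF1 target. It was measured at 48.9 CPM in L4, 53.7 CPM in R2, 56.3 CPM in R3, 46 CPM in R4 and 50.8 CPM in R5 of the tumour. The normal areas had 61.7 CPM in L1, 55.2 CPM in L2, 60.5 CPM in R1 and 56.7 CPM in R2. The groups overlapped, since tumour R3 lay above normal L2, and the other 4 tumour areas lay below all normal areas. The means were 51.1 ± 4.01 CPM (SD, n = 5) and 58.5 ± 3.04 CPM (SD, n = 4), with a log2 fold change of -0.19 ± 0.07. Scaled by library size alone, the direction turned, with 55.9 ± 4.8 CPM in tumour and 52.3 ± 2.9 CPM in normal areas and a log2 fold change of 0.10. Higd1a overlaps the antisense gene Gm47112, and the kit does not mark strand, so reads of the 2 cannot be told apart. A second gene, Gm9790, matches it over 288 bases at 99.3% identity.

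Igfbp3 encodes a secreted protein that binds insulin-like growth factors and carries them in blood and tissue. Its tumour levels were 4.45 CPM in L4, 4.03 CPM in R2, 4.18 CPM in R3, 4.21 CPM in R4 and 4.72 CPM in R5, from 23 to 32 reads per area. Its normal levels were 16.2 CPM in L1, 13.9 CPM in L2, 13.5 CPM in R1 and 15.8 CPM in R2, from 75 to 102 reads. The tumour areas were close to each other and all below the normal areas. The means were 4.32 ± 0.271 CPM (SD, n = 5) and 14.8 ± 1.37 CPM (SD, n = 4), a log2 fold change of -1.77 ± 0.12, or 3.41-fold lower in tumour. Fewer reads lie behind these values than behind those of any other of the 5 genes, 475 over all areas.

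Ndrg1 encodes a cytoplasmic protein of stressed and differentiating epithelial cells and is widely used as a marker of the hypoxia response. In tumour it was at 8724 CPM in L4, 12681 CPM in R2, 12555 CPM in R3, 14034 CPM in R4 and 11219.6 CPM in R5. In normal cortex it was at 11139.9 CPM in L1, 11938 CPM in L2, 11718 CPM in R1 and 12043 CPM in R2. Tumour areas R2, R3 and R4 were above all normal areas, L4 was below all of them, and R5 lay among them. The means were 11843 ± 2008 CPM (SD, n = 5) and 11709.8 ± 403 CPM (SD, n = 4), a log2 fold change of 0.02 ± 0.14. That value sat near 0, and its sign turned with 1 area left out, from -0.05 without tumour area R4 to 0.12 without tumour area L4, and with RLE scaling (-0.01). Scaled by library size alone it was 0.30, with the groups still overlapping. Ndrg1 transcripts were very abundant in both groups, at 1.02% to 1.45% of all counted reads in tumour against 1% to 1.08% in normal cortex. Ndrg1 overlaps Gm17035 and Gm2895 on the opposite strand, whose reads cannot be told apart from its own.

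Lox encodes lysyl oxidase, a secreted enzyme that crosslinks collagen and elastin. The tumour areas had 45.4 CPM in L4, 23.8 CPM in R2, 32.7 CPM in R3, 18.2 CPM in R4 and 34.8 CPM in R5, from 125 to 326 reads. The normal areas had 2.38 CPM in L1, 2.45 CPM in L2, 3.65 CPM in R1 and 2.02 CPM in R2, from 10 to 22 reads. All tumour areas were above all normal areas, and L4 and R5, the areas with the most fat and urothelial transcripts, were the highest. The means were 31 ± 10.5 CPM (SD, n = 5) and 2.63 ± 0.709 CPM (SD, n = 4), a log2 fold change of 3.54 ± 0.31, or 11.6-fold higher in tumour. Without L4 and R5 the log2 fold change was 3.22. Lox overlaps the antisense gene AC161119.1, from which unstranded reads cannot be separated.

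Of the 5 genes, Ak4 and Igfbp3 had every tumour area below every normal area, as did 33% of the 7020 tested genes, and Lox had every tumour area above, as did 34.8%. Since the genes were selected on these values, the count is no result about them. Higd1a and Ndrg1 had overlapping groups. From lowest to highest, the log2 fold changes ran Ak4, Igfbp3, Higd1a, Ndrg1 and Lox.

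**Figure D1:**
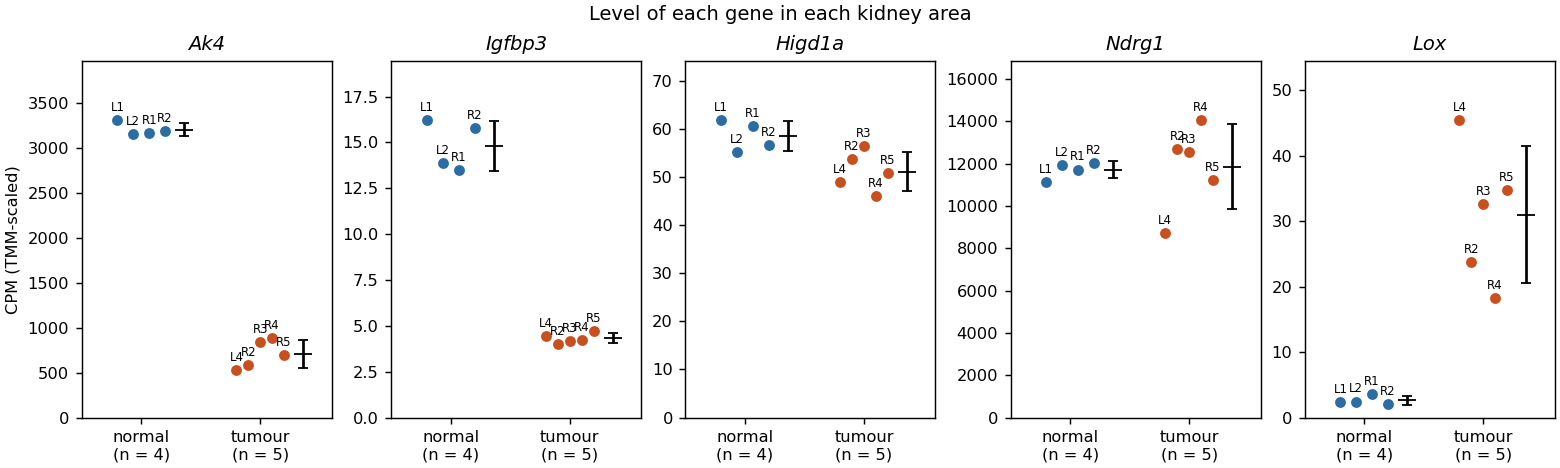
Level of each gene in CPM after TMM scaling (linear axes from 0, a scale for each gene) in the 4 normal areas (blue) and 5 tumour areas (orange), with the area names. Black bars are the mean and SD of each group. Ak4 and Igfbp3 lay lower in all tumour areas, Lox higher in all of them, and Higd1a and Ndrg1 overlapped.

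The spread between areas differed among the genes. Ak4 had an SD of log2 CPM of 0.32 over the tumour areas and 0.03 over the normal areas. Ndrg1 was similar, with 0.26 in tumour and 0.05 in normal areas. Igfbp3 had 0.08 in tumour and 0.13 in normal areas, and Higd1a had 0.11 and 0.07. Lox was the most variable of the 5 in both groups, with 0.51 in tumour and 0.32 in normal areas. Few reads lie behind 2 of these SDs, 10 to 22 per normal area for Lox and 23 to 32 per tumour area for Igfbp3. The part of counting noise in them was not tested. The median over all tested genes was 0.21 in tumour and 0.09 in normal areas. Among genes within 2-fold of the same mean level, the median tumour SD was 0.22 for the 143 genes at the level of Ak4, 0.29 for the 1453 at the level of Igfbp3 and 0.23 for the 1669 at the level of Lox. At the level of Higd1a it was 0.15, over 2055 genes, and at the level of Ndrg1 0.33, over only 5 genes. The tumour SDs of Igfbp3, Higd1a and Ndrg1 were thus below the median of their level, and those of Lox and Ak4 were above it.

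The order of the tumour areas was also not shared. From low to high, Ak4 had the order L4, R2, R5, R3, R4 and Ndrg1 the order L4, R5, R3, R2, R4, so both were lowest in L4 and highest in R4. Lox ran the other way at its ends, from R4 over R2, R3 and R5 to L4. Igfbp3 was ordered R2, R3, R4, L4, R5 and Higd1a R4, L4, R5, R2, R3, but the steps between neighbours were small beside the few reads of Igfbp3 and the narrow range of Higd1a. With the group means taken out, Pearson's r over the 9 areas was 0.75 between Ak4 and Ndrg1, -0.78 between Ndrg1 and Lox, and -0.51 between Ak4 and Lox, while Igfbp3 and Higd1a gave -0.07 with each other. The areas of a group may share an animal, so these values only describe the libraries.

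Levels were next set beside the summed CPM of markers of the cell types in which the genes may be made. Beside all marker calls stand the 39.3% higher and 35.3% lower over all tested genes. Of 11 tested proximal tubule markers, 9 were called lower and 1 higher, and their sum was 23134 to 42818 CPM in tumour against 52736 to 54827 CPM in normal areas. The tumour areas had the same order in that sum as in Ak4. Ak4 per proximal tubule marker was 0.0184 to 0.0228 in tumour against 0.0578 to 0.0627 in normal cortex, a log2 difference of -1.55 with a pooled SD of 0.10. The 11 tested markers themselves had log2 fold changes from -3.43 to 0.44 with a median of -1.47, a range that holds the -2.18 of Ak4. The most abundant marker, Kap, a kidney androgen-regulated gene, made up 67.4% to 72.6% of the tumour sum and 45.3% to 47.9% of the normal sum. Without Kap the sum was 6884 to 13972 CPM against 27457 to 29822 CPM, the order of the tumour areas was unchanged, and the log2 difference for Ak4 was -0.72, again with no overlap. The part of tubule content in the level of Ak4 was not tested.

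Ndrg1 per proximal tubule marker was 0.312 to 0.397 in tumour against 0.211 to 0.226 in normal cortex, a log2 difference of 0.66 (1.48 without Kap), with no overlap. Collecting duct markers were all called lower, 6 of 6 tested, and summed to 101 to 361 CPM in tumour against 983 to 1033 CPM. Ndrg1 per collecting duct marker was 34.8 to 125 in tumour against 10.8 to 12.1 in normal cortex, a log2 difference of 2.06. Its nearly equal group means thus stood beside lower tubule markers of both kinds. Higd1a per proximal tubule marker overlapped between the groups, at 0.00108 to 0.00211 and 0.00104 to 0.00117, with a log2 difference of 0.46, and no longer overlapped without Kap (1.29).

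Igfbp3 was compared with endothelial markers, of which 4 of 6 tested were called lower and 1 higher, and which summed to 797 to 1004 CPM in tumour against 1052 to 1098 CPM. Igfbp3 per endothelial marker was 0.00443 to 0.00556 in tumour against 0.0123 to 0.0149 in normal cortex, a log2 difference of -1.49 (-1.16 without the most abundant marker, Plvap). The 6 tested endothelial markers themselves had log2 fold changes from -1.77 to 0.30 with a median of -0.82, and Igfbp3 was at -1.77. The part of endothelial content in the level of Igfbp3 was not tested. Of 11 tested fibroblast, pericyte and smooth muscle markers, 8 were called higher and 2, Pdgfra and Pdgfrb, lower, and the sum was 1988 to 5982 CPM against 741 to 875 CPM. Per fibroblast marker Igfbp3 differed by -3.73 on the log2 scale. Lox per fibroblast marker was 0.00759 to 0.014 in tumour against 0.00272 to 0.00479 in normal cortex, a log2 difference of 1.57 with a pooled SD of 0.35 (1.09 without the most abundant marker, Rgs5). The 11 markers themselves ran from -1.68 to 4.15 on the log2 scale with a median of 2.68, a range that holds the 3.54 of Lox. Without Rgs5, their sum put the tumour areas in the order R4, R2, R3, R5, L4, as Lox did, while with Rgs5 R3 and R2 changed places. Macrophage markers summed to 736 to 1873 CPM in tumour and 81.4 to 105 CPM in normal areas, also in the order of Lox. The part of fibroblast or macrophage content in the level of Lox was not tested.

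**Figure D2:**
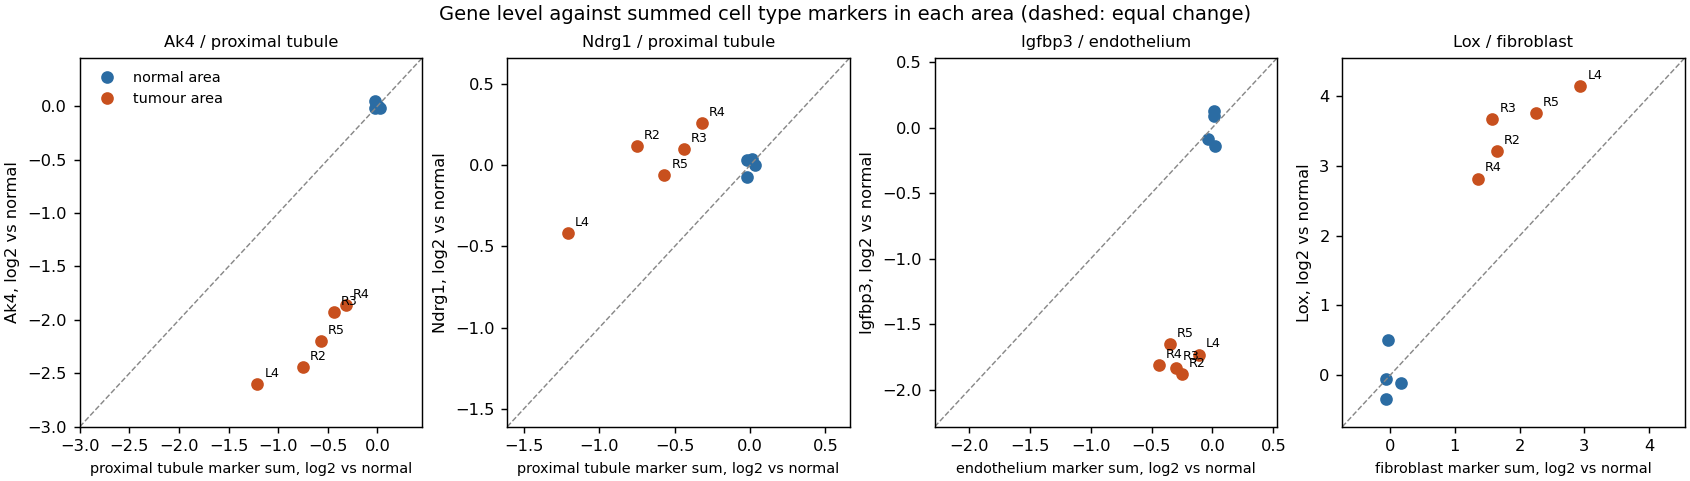
Level of Ak4, Ndrg1, Igfbp3 and Lox in each area (vertical axes) against the summed level of a marker list (horizontal axes), both as log2 relative to the normal areas, with normal areas in blue and tumour areas in orange. On the dashed line gene and markers change equally: Ak4 and Igfbp3 lay below it in all tumour areas, Ndrg1 and Lox above it.

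The 5 genes were then set beside other known HIF targets in 6 groups by role. Of 77 listed symbols, 55 were in the table, 12 were listed at 0 in every area, among them Slc2a1, Gapdh, Pgk1, Eno1, Vegfa and Epo, and 36 were tested. Ero1l and Ero1a are symbols of the same gene, found in the table as Ero1l and counted as absent as Ero1a. Many genes were at 0 throughout, 3989 of 14052 (28.4%), and genes that every cell uses are among them, so a 0 here does not show absence. By edgeR's test, 26 of the 36 were called higher in tumour and 4 lower, against 39.3% higher and 35.3% lower over all tested genes. Single role lists had 4 to 8 tested genes each, too few to set against these shares. Their median log2 fold change was 0.88, beside 0.06 for all tested genes. Ak4 (-2.18) and Igfbp3 (-1.77) lay below all 36, whose lowest value was -1.36, and Lox (3.54) lay below only Igfbp1, Slc16a3 and Hk2. The 5 genes were selected on these levels, so their places among the others are a description only.

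All 8 tested genes of glucose use were called higher. Hk2, the hexokinase that starts glycolysis, was at 48.9 ± 9.69 CPM (SD, n = 5) in tumour and 2.26 ± 0.515 CPM (SD, n = 4) in normal areas (log2 fold change 4.42 ± 0.21, adjusted p = 6.79e-08). Pfkl, a phosphofructokinase, rose by 2.40 ± 0.09 (adjusted p = 2.69e-08). Slc16a3, which exports lactate, had 33 to 90 reads in each tumour area and 2 in all normal areas together (adjusted p = 1.79e-06), too few for a fold.

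Among genes of HIF feedback and transcription, 6 of 8 were called higher and 1 lower. Egln3, a prolyl hydroxylase that acts on HIF, rose from 52.6 ± 3.16 CPM (SD, n = 4) to 502 ± 74 CPM (SD, n = 5), a log2 fold change of 3.26 ± 0.12 (adjusted p = 2.41e-08). Hif3a (1.16 ± 0.22) and Zfp395 (1.01 ± 0.07) rose as well, Rora, a nuclear receptor, fell by 1.36 on the log2 scale (SE 0.09), and Kdm4b, a histone demethylase, was at -0.28 and not called.

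The mitochondrial list is the one nearest in role to Ak4 and Higd1a. Of its 4 tested genes 3 were called higher and none lower. Ndufa4l2, a subunit relative of the respiratory chain, rose by 3.28 ± 0.38 (adjusted p = 1.97e-05), with its highest level in tumour area L4. Fam162a rose by 2.19 ± 0.11 and Lonp1, a matrix protease, by 0.36 ± 0.11. Pdk3 was at -0.03 (adjusted p = 0.777), a sign that turned with library size scaling. Ak4 (-2.18) was below all 4 of these values, and Higd1a (-0.19) was near Pdk3.

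The matrix list, nearest to Lox, had 4 of 5 tested genes called higher. The collagen gene Col5a1 rose by 1.43 ± 0.22 (adjusted p = 0.000144) and P4ha1, a collagen prolyl hydroxylase, by 1.26 ± 0.17 (adjusted p = 5.83e-05). Loxl2, a relative of Lox, rose by 0.77 ± 0.19 (adjusted p = 0.0045), with overlapping groups. Ero1l was at 0.05 and not called (adjusted p = 0.524), but it was called higher with library size alone (0.34, edgeR adjusted p = 0.00141).

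Secreted and vascular targets, nearest to Igfbp3, had 2 of 6 called higher and 1 lower, against 39.3% and 35.3% of all tested genes. Igfbp1, another binding protein of insulin-like growth factors, was at 345 ± 159 CPM (SD, n = 5) in tumour and 1.98 ± 0.761 CPM (SD, n = 4) in normal areas, a log2 fold change of 7.39 ± 0.49 (adjusted p = 5.04e-07). Edn1, encoding endothelin, rose by 1.16 ± 0.19, and Flt1, a receptor for vascular growth factor, fell by 0.96 on the log2 scale (SE 0.05). Hmox1, Pdgfb and Pgf were at 0.09, 0.15 and 1.08 and not called. Pgf was called higher without tumour area R2 (adjusted p = 0.0353) or R4 (0.0299), with the area letter as a covariate (0.0177) and with library size alone (0.0294), and Hmox1 with upper quartile factors (0.0116) and library size alone (0.00019).

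The list of growth, stress and lipid genes had 3 of 5 called higher and 2 lower, against 39.3% and 35.3% of all tested genes. Mif, a cytokine, rose from 135 ± 8.65 CPM (SD, n = 4) to 541 ± 108 CPM (SD, n = 5; adjusted p = 6.26e-07), and Nos2, a nitric oxide synthase, rose by 2.10 ± 0.28 on the log2 scale. Ccnd1, the cyclin of early cell cycle, had a log2 fold change of 0.42 ± 0.17 (edgeR adjusted p = 0.0452). That call was lost without tumour area R2, R3 or R4 or any normal area (edgeR adjusted p 0.0715 to 0.0978). With all areas kept, it was lost with RLE factors (edgeR adjusted p = 0.059), the area letter as a covariate (edgeR adjusted p = 0.117) and limma-voom (adjusted p = 0.0548). The lipoprotein receptor Vldlr fell by 0.87 on the log2 scale (SE 0.08) and the lipid droplet gene Plin2 by 0.67 (SE 0.14), the latter a call lost with library size scaling (adjusted p = 0.0684).

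**Figure D3:**
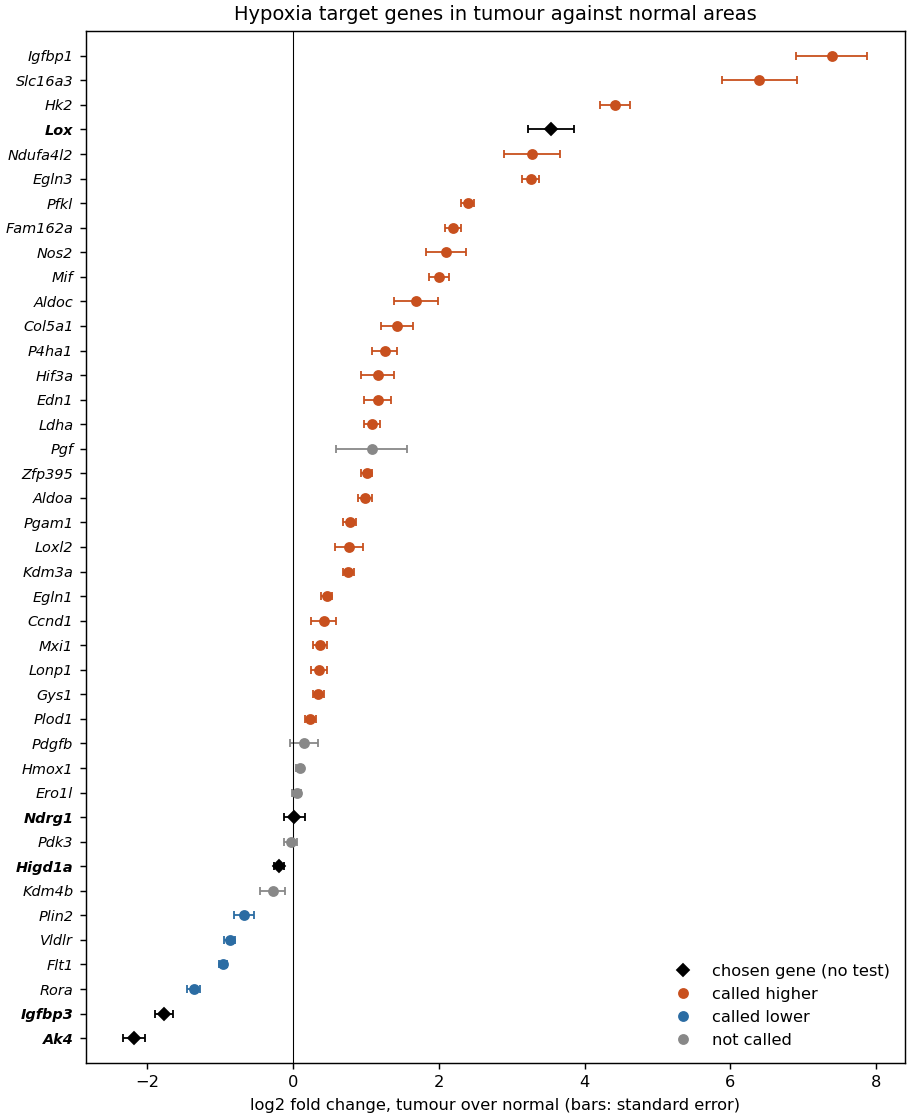
Log2 fold change of tumour over normal areas (horizontal axis) with its standard error for the 36 tested hypoxia targets and the 5 chosen genes (black diamonds, no test). Orange marks genes called higher, blue genes called lower and grey genes not called by edgeR at adjusted p under 0.05. Ak4 and Igfbp3 are the lowest of all, Lox is among the highest, and the Slc16a3 value rests on 2 normal reads.

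Relatives of each gene were also read. Of the adenylate kinases besides Ak4 that were followed, 3 were tested, 2 were called lower and none higher. Over all tested genes 35.3% were called lower and 39.3% higher, and 3 genes are too few to set against these shares. Ak7, found in motile cilia, fell by 1.52 on the log2 scale (SE 0.23, adjusted p = 0.000136), and Ak3, the other kinase of the mitochondrial matrix, fell by 0.65 (SE 0.10), from 1793 ± 35 CPM (SD, n = 4) to 1142 ± 151 CPM (SD, n = 5). Ak5 was at 0.01 with equal means of 17.6 CPM. Ak1 was listed at 0, Ak8 and Ak9 had too few reads, and Ak6 was not analysed here. The Ak4 value of -2.18 was below those of all 3.

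In the insulin-like growth factor axis, 3 of 9 tested genes were called higher and 4 lower, near the 39.3% and 35.3% of all tested genes. Besides Igfbp1, the growth factor Igf1 rose by 1.31 ± 0.21 (adjusted p = 0.000232). Igfbp7 was at 0.17 ± 0.06 (edgeR adjusted p = 0.0273), a call lost without tumour area R3 or normal area L1, R1 or R2 (edgeR adjusted p 0.0554 to 0.088). It was lost with no filter as well (edgeR adjusted p = 0.0529). The adaptor Irs2 (-1.57 ± 0.34), the receptors Igf1r (-0.88 ± 0.15) and Igf2r (-0.71 ± 0.07) and the binding protein Igfbp4 fell. Igfbp5 was at -0.01, turning to 0.21 without L4 and R5, and Igfbp6 was at 1.17 (adjusted p = 0.053), with its highest level in L4. Igfbp6 was at 0.54 without L4 (adjusted p = 0.0867), and it was called higher without tumour area R2, R3 or R4 (adjusted p 0.0207 to 0.0482), with DESeq2 (0.0276) and in 3 other settings. Igfbp2 was listed at 0.

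Igfbp1 and Igfbp3 are neighbouring genes, and their counts moved apart. The count of Igfbp1 divided by that of Igfbp3 was 54.2 in L4, 147 in R2, 86.4 in R3, 84.7 in R4 and 36.8 in R5 of the tumour. In the normal areas it was 0.12 in L1, 0.216 in L2, 0.0864 in R1 and 0.115 in R2. Igfbp1 had many more reads than Igfbp3 in every tumour area and fewer in every normal area, from 7 to 22 normal reads of Igfbp1. The ratio is of reads and not adjusted for gene length.

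Near Higd1a, the tested genes were 3 that act on the respiratory chain. Cox7a1, a muscle form of a cytochrome oxidase subunit, rose by 1.98 ± 0.28 (adjusted p = 9.54e-05), from 1.75 ± 0.318 CPM (SD, n = 4) to 7.11 ± 2.22 CPM (SD, n = 5). Cox7a2l (0.16, adjusted p = 0.0525) and Chchd10 (0.24, adjusted p = 0.0536) were not called, but Chchd10 was called without tumour area L4 (0.34, adjusted p = 0.000143), and Cox7a2l without tumour area R2 (0.20, adjusted p = 0.0168) or R4 (0.18, adjusted p = 0.0288). Cox7a2l and Chchd10 were also called higher with upper quartile factors and with library size alone, and Cox7a2l with the area letter as a covariate. Higd1b had too few reads.

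Of the other Ndrg genes, Ndrg3 fell by 0.62 on the log2 scale (SE 0.07, adjusted p = 2.64e-05), from 290.2 ± 2.86 CPM (SD, n = 4) to 188 ± 19.8 CPM (SD, n = 5). Ndrg2 was at -0.46 ± 0.30 (adjusted p = 0.187), with 95.7 to 383 CPM in tumour and 368 to 372 CPM in normal areas, and was called lower without L4 and R5 (-0.81, adjusted p = 0.0235). Ndrg1 at 0.02 was the highest of the 3.

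Among lysyl oxidases and genes of collagen crosslinking, 11 of 13 tested were called higher and 1 lower, against 39.3% and 35.3% of all tested genes. Beside them the fibroblast, pericyte and smooth muscle markers summed to 1988 to 5982 CPM in tumour against 741 to 875 CPM, and their part in these calls was not tested. Tumour area L4 had the highest tumour level for 9 of the 13 genes, and without L4 and R5 the counts were 10 higher and 1 lower. Each of the 4 lysyl oxidase-like genes was called higher, Loxl3 by 1.25 ± 0.21, Loxl4 by 0.97 ± 0.16, Loxl2 by 0.77 ± 0.19 and Loxl1 by 0.52 ± 0.17, and Lox at 3.54 exceeded them. Bmp1, a protease that activates the lysyl oxidase precursor, rose by 1.61 ± 0.18. The collagens Col1a1, at 581 ± 267 CPM (SD, n = 5) against 60.5 ± 6.81 CPM (SD, n = 4), and Col3a1 rose by 3.27 ± 0.33 and 3.10 ± 0.29. Eln, encoding elastin, had 1.78 ± 0.60 (edgeR adjusted p = 0.021), but 1.07 without tumour area L4. Its call was lost without normal area L2, R1 or R2 (edgeR adjusted p 0.054 to 0.0589) and with limma-voom (adjusted p = 0.0543). Fbln5, an elastic fibre protein, fell by 0.59 on the log2 scale (SE 0.07), and Fn1 was at -0.14 and not called.

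**Figure D4:**
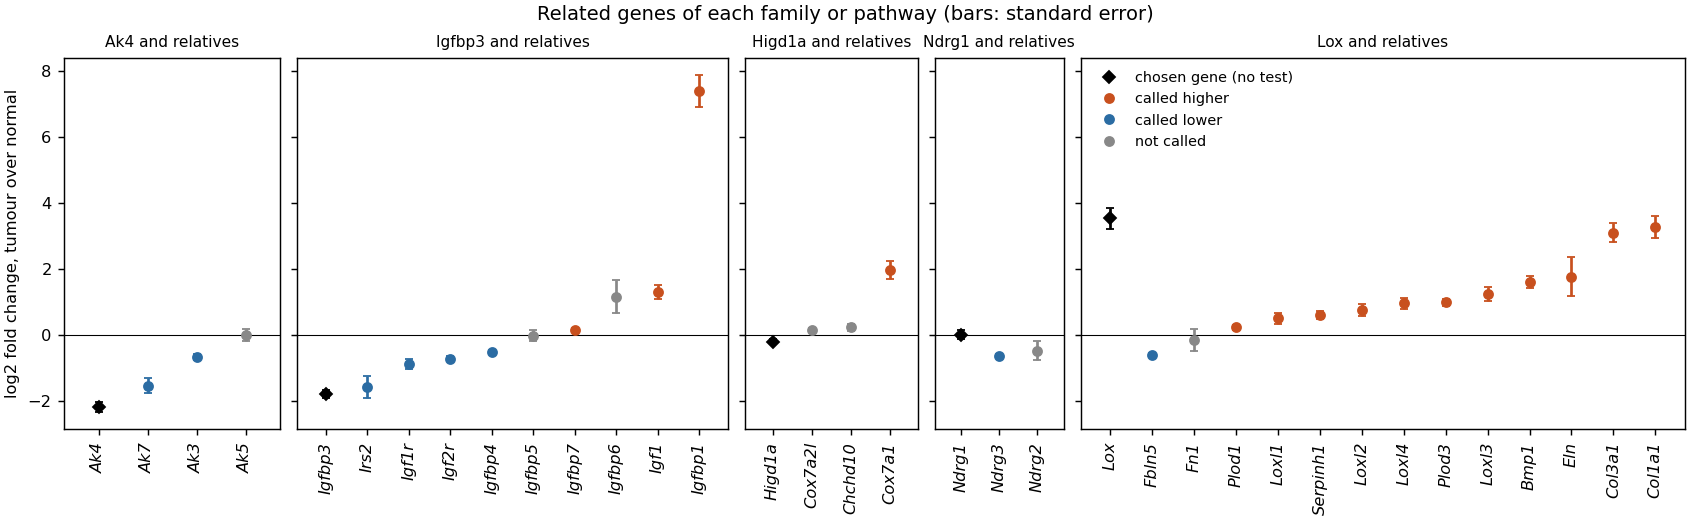
Log2 fold change of tumour over normal areas (vertical axis) with its standard error for each chosen gene (black diamond, no test) and its tested relatives, with orange for called higher, blue for called lower and grey for not called. Ak4, Ak7 and Ak3 lay below 0 and Ak5 beside it, lysyl oxidases and collagen genes mostly above, and Igfbp1 and Igfbp3 at opposite ends of their axis.

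Genes most like each of the 5 across the 9 areas were ranked by Pearson's r of log2 CPM, as a description, since r over both groups includes the gap between them. Ak4 was most like Ubxn2b, Habp4 and Armc1 (r = 0.999 for each, and 0.97 to 0.98 with the group means taken out). Igfbp3 was most like Usp31, Vezf1 and Foxk2 (0.996), with 0.58 to 0.70 once the group means were out. Higd1a was most like Cpm, the carboxypeptidase M gene (0.941), Tldc1 (0.925) and Ano5 (0.912). Genes most like Ndrg1 included Sirt3, a mitochondrial deacetylase (0.978), and Cox5a, a cytochrome oxidase subunit (0.962), neither of which was called, and which kept 0.98 and 0.96 with the group means taken out. With library size alone both were called higher (edgeR adjusted p = 0.0188 for Sirt3 and 0.0114 for Cox5a). Sirt3 was also called higher without L4 and R5 (0.21, edgeR adjusted p = 0.00717). Lox was most like Rpl8 (0.996), Rgs16 (0.996) and Tsn (0.994), with 0.92 to 0.93 within groups.

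Other scalings moved the 5 genes by a common amount. Library size alone placed the median of all tested genes at 0.35 in place of 0.06, and the share of calls that were higher at 68.9% in place of 52.7%. Under that scaling Ak4 was at -1.90, Igfbp3 at -1.48, Higd1a at 0.10, Ndrg1 at 0.30 and Lox at 3.84. Over all settings Ak4 stayed between -2.28 and -1.90, Igfbp3 between -1.82 and -1.48 and Lox between 3.22 and 3.84, whereas Higd1a and Ndrg1 each had values on both sides of 0.

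**Figure D5:**
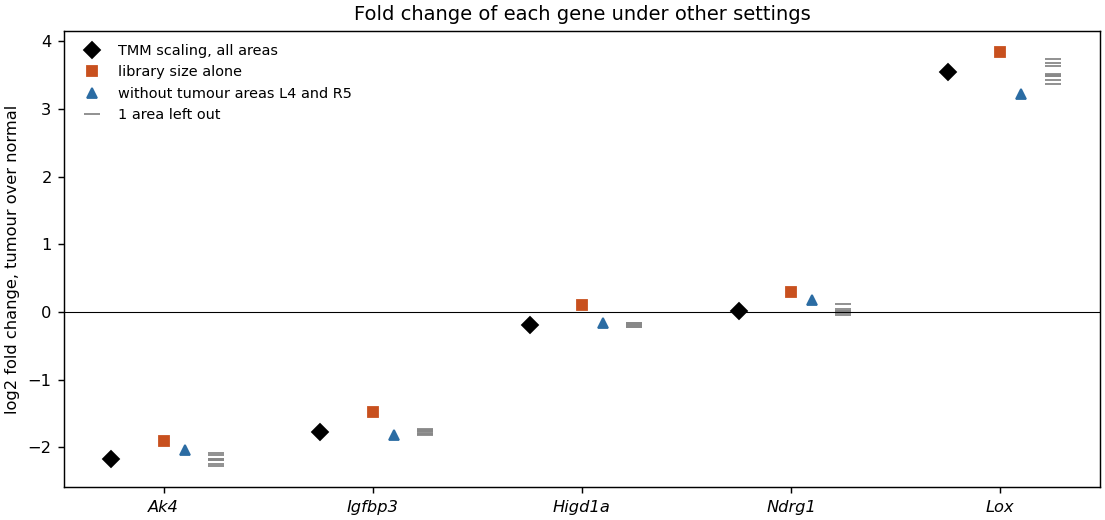
Log2 fold change of tumour over normal areas (vertical axis) for each of the 5 genes with TMM scaling and all areas (black), library size alone (orange), without tumour areas L4 and R5 (blue), and with each of the 9 areas left out in turn (grey). Ak4, Igfbp3 and Lox kept their direction in every setting drawn, while Higd1a turned with library size alone and Ndrg1 lay around 0.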

How the data were processed

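The deposited table holds raw counts of reads per gene, 1 column per area. Per the labels, RNA was DNase treated, selected for poly(A), made into TruSeq libraries, which do not mark strand, and sequenced as read pairs. STAR 2.3, HTSeq, edgeR and mm9 appear in the submitters' processing notes, with no role given. Neither the annotation nor the strand setting is given in the sources used here.

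All genes were fitted with edgeR 4.0.16 in R 4.3.3 (filterByExpr, minimum count 10 and total 15, TMM factors of 0.89 to 1.17, quasi-likelihood test of the group), and a Benjamini-Hochberg adjusted p under 0.05 over 7020 genes is a call. A total of 3 counts, the limit that a 0 allows, is 0.409 to 0.649 CPM. Log2 CPM used a prior count of 2. Alternatives were RLE and upper quartile factors, library size alone, no filter, DESeq2 1.42.0, limma-voom 3.58.1, the area letter as a covariate, areas left out, a prior count of 0.5 and marker lists without their most abundant gene. The fit was tested on simulated data. BLAST 2.17.0 found gene copies of at least 100 bases at 95% identity in GENCODE transcripts of GRCm38.

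The 5 genes, the lists, the marker genes and the alternatives were chosen with earlier results of these data known. Named genes are up to 3 called per list and direction with the largest fold change and at least 1 CPM, up to 3 not called with the highest CPM, checks, and the 3 most similar genes with at least 10 CPM. Some genes that the lists or this rule would name are not reported here. Igfbp4, Bmp1, the other lysyl oxidase-like genes and the genes named at 0 in the hypoxia list were added after their values were seen.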

Additional observations from a re-analysis of the deposited data

Results flagged for a closer look

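In 9 of the 140 groups examined (70 genes, each in tumour and in normal areas), 1 area stood apart from the others of its group by Dixon's criterion, which flags about 1 in 20 groups by chance. None of them involved Ak4, Igfbp3, Higd1a, Ndrg1 or Lox. Tumour area L4 was the highest for Ndufa4l2 (255 CPM, next 123), Igfbp6 (27.3 CPM, next 11) and Eln (20 CPM, next 7.61). Tumour area R5 was the lowest for Ero1l (90.7 CPM, next 106) and tumour area R2 the lowest for Vezf1 (224 CPM, next 237). Among normal areas, R1 was the lowest for Egln3 (47.8 CPM, next 53.9), and R2 was the highest for Mif (148 CPM, next 132) and Irs2 (8.3 CPM, next 5.05), while L1 was the highest for Loxl2 (52.4 CPM, next 38.5).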

How the results depend on the processing

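Of 204 values recomputed for the 5 genes, the lists and the ratios, 182 stayed within the spread between areas or within 1.5 times a count, 14 moved and 8 changed sign. With library size alone Ak4 was at -1.90, Igfbp3 at -1.48 and Ndrg1 at 0.30, and Higd1a turned to 0.10. Ndrg1 also turned with RLE factors (-0.01), DESeq2 (-0.01) and the area letter as a covariate (-0.07), and ran from -0.05 to 0.12 with areas left out. Without the most abundant marker, the log2 differences per marker were -0.72 for Ak4 and 1.29 for Higd1a and 1.48 for Ndrg1 over proximal tubule, 1.09 for Lox and -4.22 for Igfbp3 over fibroblast, and -1.16 for Igfbp3 over endothelium. With group means taken out, 0 of the 3 most similar genes were shared for Ak4, Igfbp3, Ndrg1 and Lox and 1 for Higd1a. Of the named genes, Pdk3 (0.26) turned with library size alone and Igfbp5 (0.21) without L4 and R5. Other hypoxia targets called higher numbered 25 to 30 and lower 3 to 4 over all settings, and relatives 12 to 18 and 8 to 9. Apart from the settings whose construction differs as named, the cause was not tested. No paired analysis was possible because the sample descriptions carry a different number in each group and the groups differ in strain. The area name R2 occurs in both groups but does not mark a pair. The few reads of Igfbp3 and of Lox in normal areas limit their precision, and with 5 and 4 areas from perhaps 1 animal each, spread between animals was not measured.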
